A study of Mus musculus with 51 samples.

Results

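The enzymes of amino acid breakdown followed here are 8 genes, chosen by name: Tat, Hpd, Hgd and Fah of tyrosine breakdown, Tdo2 of tryptophan, Hal of histidine, Sds of serine and threonine, and Got1, the cytosolic aspartate aminotransferase. They are 8 of the 33773 rows of the deposited RPKM matrix (reads divided by gene length and library size), and all 8 were found under these symbols. The values come from 21 RNA libraries among the 51 samples of a mouse series on liver cells that lack FoxA transcription factors. The triple null hepatocytes (n = 4) came from Foxa1 L/L, Foxa2 L/L, Foxa3 -/- mice that received, at 8 weeks of age, an adeno-associated virus with Cre recombinase driven by the hepatocyte-specific Tbg promoter. FoxA3 null hepatocytes (n = 4) share the Foxa3 -/- genotype, and the design text names a GFP virus, in mice of the same alleles and the same 8 weeks of age, as the control. FoxA1/A2 lox hepatocytes (n = 3, lox below) carry the floxed alleles, and FoxA1/A2 Cre alfp hepatocytes (n = 4, Cre alfp below) carry the deletion by a Cre labelled alfp, with Foxa3 intact in both. Whole liver gave 2 libraries of the HNF4a control and 4 with the label HNF4a null, which stands for depletion in the adult liver. Ages of the last 4 groups are not given in the sources used here.

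Tyrosine breakdown is a chain. Tat, tyrosine aminotransferase, makes hydroxyphenylpyruvate, Hpd turns that into homogentisate, Hgd opens the ring, and Fah cuts the final product into fumarate and acetoacetate. Tdo2, tryptophan dioxygenase, opens the kynurenine route. Hal, histidine ammonia-lyase, and Sds, serine dehydratase, remove ammonia from their amino acids, and both are known from the periportal zone of the liver lobule. Tat, Tdo2 and Sds are textbook genes of the fasting and glucocorticoid response in liver. FoxA factors bind forkhead motifs, and HNF4a, a nuclear receptor, binds near many hepatocyte genes.

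The promoter windows that hold a match to a FoxA or HNF4a motif are shown, since the libraries differ in these factors. The sequences are the 250 bases before the RefSeq start site, on the gene's strand, in build GRCm38.p6, with motif matches in capitals. The Hpd window is chr5:123182724-123182973 (minus strand), the Hgd window chr16:37579903-37580152 (plus strand, inside the annotated span of the gene), and the Tdo2 window chr3:81975729-81975978 (minus strand).
Hpd: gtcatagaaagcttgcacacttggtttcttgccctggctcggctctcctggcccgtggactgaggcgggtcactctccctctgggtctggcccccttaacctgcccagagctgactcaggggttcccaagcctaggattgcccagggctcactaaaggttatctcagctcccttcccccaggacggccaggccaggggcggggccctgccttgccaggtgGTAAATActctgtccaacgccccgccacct
Hgd: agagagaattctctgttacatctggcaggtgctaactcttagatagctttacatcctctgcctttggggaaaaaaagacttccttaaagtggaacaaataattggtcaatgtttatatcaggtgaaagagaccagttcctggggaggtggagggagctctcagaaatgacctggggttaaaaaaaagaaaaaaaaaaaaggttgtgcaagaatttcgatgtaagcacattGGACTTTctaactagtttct
Tdo2: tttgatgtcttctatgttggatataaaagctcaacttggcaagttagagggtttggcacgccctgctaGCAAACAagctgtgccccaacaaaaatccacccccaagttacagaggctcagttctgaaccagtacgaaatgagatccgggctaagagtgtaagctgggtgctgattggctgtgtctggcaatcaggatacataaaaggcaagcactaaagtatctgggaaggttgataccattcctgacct
Searches on both strands used the forkhead core TGTTTAC, a variant with the letters TATTTAC, and a further variant with the letters TGTTTGC. Hpd holds TATTTAC on its minus strand at 30 bases before the start, and Tdo2 holds TGTTTGC on its minus strand at 182 bases before the start. The HNF4a core letters AAAGTCC matched Hgd, on its minus strand at 20 bases before the start. No match of one motif overlapped another. A window, to 50 bases past the start, was found for 7 of the 8 genes, all but Sds. The core TGTTTAC occurred in 0 of these 7 and in 3.65% of 32851 windows, the core or either variant in 2 of 7 and in 11.2%, the HNF4a core site in 1 of 7 and in 4.21%, and the glucocorticoid receptor core site TGTTCT in 0 of 7 and in 19.0%. These matches describe letters and show no binding.

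The targeted genes were checked first, and 2 of them, Foxa1 in the triple null and Hnf4a in liver, did not simply follow the labels. Foxa3 averaged 25.0 ± 5.39 RPKM in lox (SD, n = 3) and 31.1 ± 2.85 in Cre alfp (n = 4), and no FoxA3 null or triple null library exceeded 0.0114. Foxa1 averaged 6.72 ± 1.81 in lox, 1.24 ± 0.1 in Cre alfp, 8.50 ± 1.85 with FoxA3 null and 3.28 ± 0.283 with the triple null, and Foxa2 averaged 12.5 ± 6.26, 1.09 ± 0.127, 13.7 ± 4.58 and 0.366 ± 0.103. Foxa1 in the triple null was called lower than in FoxA3 null (-1.13 on the log2 scale, adjusted p = 0.00011 by limma) and passed against lox without reaching the minimum difference for a call (-0.82, adjusted p = 0.00166 by limma), and it was above Cre alfp by 0.94 (adjusted p = 0.000403 by limma). The authors' deposited table against the undeleted control gives Foxa1 at -0.44 (adjusted p = 0.0588). In the authors' deposited tables Foxa1 was at -0.60 against FoxA3 null (adjusted p = 0.00138) and at 1.35 against Cre alfp, and both passed. Hnf4a averaged 122 ± 5.38 RPKM in the HNF4a control (n = 2) and 524 ± 27.3 in those labelled HNF4a null (n = 4), which goes against that label, so this group is called by its label throughout. A single value per gene does not separate a transcript without the deleted exons from a complete one. All 10 hepatocyte-defining markers, Tat among them, were above 1 RPKM in every group. Absolute depth is unknown, and relative depth, read from low values, ran from 1 to 4.08 over the 21 libraries, with the liver libraries at 1 to 1.10. The hepatocyte libraries also fell into sets by Foxa3 genotype: for 1272 of 11500 tested genes (11.1%) the 8 FoxA3 null and triple null libraries lay all above or all below the 7 others, and none of the 8 enzymes was among them. Any batch along this line and the Foxa3 genotype cannot be told apart, so comparisons within a set come first below. Whether libraries of a group come from separate mice is not stated, so p-values measure the spread between these libraries only. In bulk RNA, fewer cells of a type and less RNA per cell cannot be told apart.

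**Figure D1:**
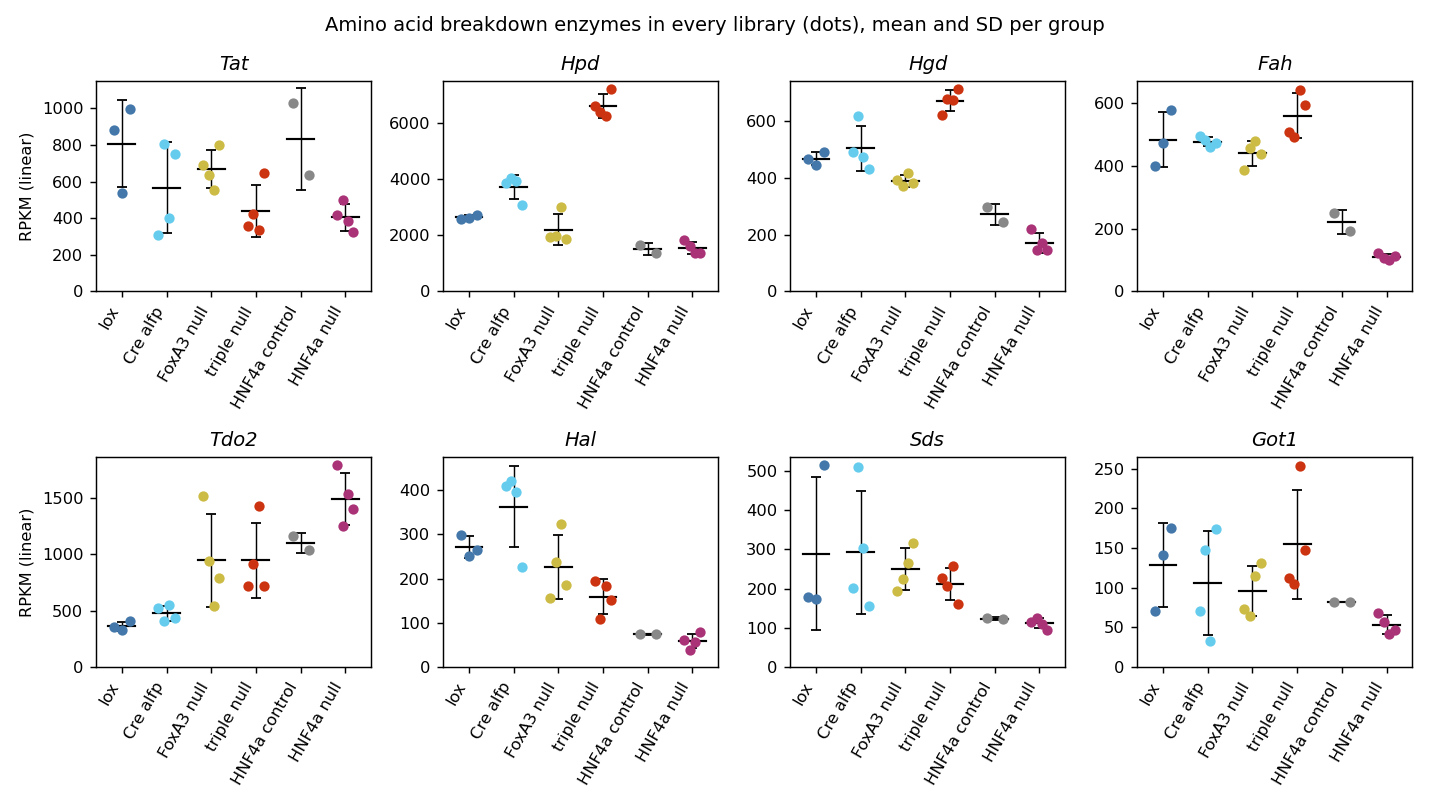
RPKM (linear axes from 0) of the 8 enzymes in each of the 21 libraries, with a bar for the group mean and whiskers for the SD; HNF4a null is the group so labelled. Hpd in the 4 triple null libraries lies between 6256 and 7212, above every other library, while Tat, Sds and Got1 overlap across the 4 hepatocyte groups.

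Hpd was the most abundant of the 8 and the one that differed most between the triple null and FoxA3 null groups. The triple null libraries had 6620.4, 6389, 6256 and 7212 RPKM of Hpd. The FoxA3 null libraries had 1941, 1975, 3018 and 1878. The groups did not overlap, and FoxA3 null replicate 3 stood above its group. The log2 difference was 1.61 (SE 0.14, adjusted p = 1.55e-06 by limma), a 3.06-fold rise on the log2(RPKM + 1) scale used throughout. Hpd was 6619 ± 423 RPKM in the triple null (SD, n = 4) against 2203 ± 545 (n = 4). By mean RPKM it ranked at position 43 of 33773 genes in FoxA3 null and at position 20 in the triple null.

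Hpd was the only one of the 8 called in triple null against FoxA3 null, where a call needs an adjusted p under 0.05 and an absolute log2 difference of at least 1; 8.11% of 11500 tested genes were called. With no minimum difference, 2 of the 8 passed, Hpd and Hgd, against 29.7% of all tested genes. Both shares of the 8 are near these backgrounds. The median log2 difference was 0.19 over the 8 and 0.05 over all tested genes.

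Hgd, the enzyme after Hpd in the chain, was also higher but by less. The triple null libraries held 623, 679.9, 674 and 713 RPKM of it and the FoxA3 null libraries 392, 369.9, 419 and 381. The groups did not overlap, and the spread within each was small. The log2 difference of 0.78 (SE 0.11, adjusted p = 9.59e-05 by limma), or 1.72-fold, passed the test without the minimum difference and was not called with it.

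Fah, at the end of the chain, was at 509.5, 493, 644 and 595 RPKM in the triple null, and FoxA3 null libraries had 386, 457, 479.9 and 439. Every triple null library was above every FoxA3 null library, by a small margin. The log2 difference of 0.34 (SE 0.12) missed the threshold (adjusted p = 0.0514 by limma).

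Tat, at the start of the chain, had the opposite sign. Its triple null libraries were at 355, 424, 334 and 645 RPKM and its FoxA3 null libraries at 689.6, 638, 555 and 801. Triple null replicates 1, 2 and 3 were below all FoxA3 null libraries and replicate 4 was among them. The log2 difference of -0.65 (SE 0.31) did not pass (adjusted p = 0.128 by limma).

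The ratio of Hpd to Tat RPKM sets the middle of the chain against its first step within a library. Triple null libraries had a ratio of 15.9 ± 3.58 (range 11.2 to 18.7, n = 4) and FoxA3 null libraries one of 3.42 ± 1.38 (2.34 to 5.44, n = 4), with no overlap. Cre alfp libraries, at 4.11 to 12.6, spanned the gap between lox, at 2.75 to 4.82, and the triple null. The next ratio, Hgd to Hpd, averaged 0.102 ± 0.00648 for the triple null against 0.183 ± 0.0302 for FoxA3 null, and every triple null library was below every FoxA3 null library.

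**Figure D2:**
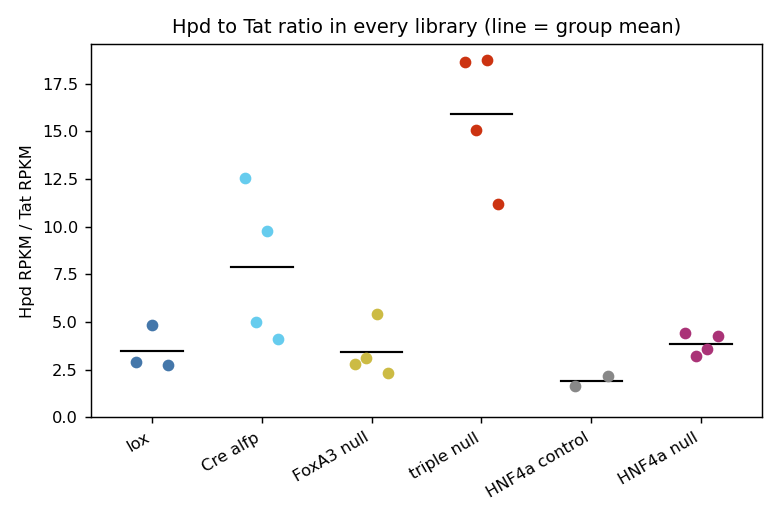
Ratio of Hpd to Tat RPKM (linear axis from 0) in each of the 21 libraries by group, with a line at the group mean; HNF4a null is the group so labelled. The triple null libraries lie between 11.2 and 18.7 and overlap only with Cre alfp, whose highest library is at 12.6.

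The enzymes of other amino acids did not pass in this comparison. Tdo2 was at 721, 917, 1429 and 723 RPKM in the triple null, and FoxA3 null libraries had 1518, 943, 545 and 791. The groups covered nearly the same range, with a log2 difference of 0.04 (SE 0.27, adjusted p = 0.938 by limma).

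Hal was at 194, 108, 184 and 152 RPKM in the triple null, and FoxA3 null libraries had 157, 237, 322 and 186. The libraries overlapped, and the log2 difference was -0.48 (SE 0.25, adjusted p = 0.164 by limma). Sds was at 227, 206, 257 and 160.5 against 193, 224, 265 and 316, also with overlap, and its log2 difference was -0.22 (SE 0.37, adjusted p = 0.687 by limma).

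Got1 was at 112, 105, 254 and 147 RPKM in the triple null, and FoxA3 null libraries had 73.9, 64.1, 115 and 131. Replicate 3 of the triple null was the highest of all 21 libraries for this gene. The log2 difference of 0.65 (SE 0.47, adjusted p = 0.323 by limma) was within the spread of the libraries.

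Other lists moved in the same comparison. The summed RPKM of the hepatocyte-defining markers was 38295 to 46366 for the triple null against 67386 to 71417 for FoxA3 null, with 5 of 10 called lower. The summed sinusoidal endothelium markers were at 12.7 to 24.7 against 37.8 to 60.4 RPKM (3 of 11 tested called lower) and the summed neutrophil and monocyte markers at 9.82 to 112 against 0.834 to 2.06 (both of the tested ones, out of 10 listed, called higher, with Ly6g at 0 in all 8 libraries and Mpo in FoxA3 null). Stellate markers had 2 of 5 tested called lower, erythroid ones 3 higher and 1 lower of 4, and Kupffer cell and cholangiocyte markers 0 of 10 and 0 of 3. No lymphocyte marker reached the filter. The part of these shifts in the enzyme values was not tested.

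With Foxa3 present, the deletion of Foxa1 and Foxa2 left the 8 enzymes uncalled. In Cre alfp against lox, limma called 0 of the 8 and 2.38% of all tested genes; with no minimum difference it passed 0 of the 8 and 5.46%. At an unadjusted p under 0.05, 1 of the 8 passed, Hpd, against 18.3% of all tested genes. Hpd had 3883, 4037, 3925 and 3094 RPKM in Cre alfp against 2585, 2607 and 2743 in lox. All Cre alfp libraries were above all lox libraries, with replicate 4 lowest. The log2 difference was 0.49 (SE 0.16, adjusted p = 0.0882 by limma).

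Tat varied widely from library to library here, at 309, 809, 401 and 753 RPKM in Cre alfp and 884, 541 and 997 in lox, with a log2 difference of -0.57 (SE 0.33, adjusted p = 0.4 by limma). Cre alfp replicates 1 and 3 lay far below replicates 2 and 4. Got1 was low in the same replicates 1 and 3, at 70.5 and 32.6 RPKM, and at 148 and 174 in replicates 2 and 4. Got1 in lox was at 71.1, 141 and 175 RPKM, so the groups overlapped.

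Sds reached 515 RPKM in lox replicate 3 and 509 in Cre alfp replicate 2, while the other lox libraries were at 179 and 174 and the other Cre alfp libraries at 201, 303 and 156. Hal had 408, 421, 395 and 225 RPKM in Cre alfp against 298, 250.2 and 265 in lox. Replicate 4 of Cre alfp was below all lox libraries for Hal while the other replicates were above them. Neither gene passed, with log2 differences of 0.07 (SE 0.40) for Sds and 0.38 (SE 0.27) for Hal.

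Hgd had 490.2, 619, 475 and 433 RPKM in Cre alfp against 468, 446 and 490.4 in lox. Fah was at 494, 482, 460.4 and 474 against 401, 475 and 577. Tdo2 was at 521, 408, 551 and 436 against 357, 327 and 406. Tdo2 alone of these had no overlap, and its log2 difference of 0.39 (SE 0.29) had an adjusted p of 0.541 by limma.

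The difference between the deletions was tested as an interaction, the change in triple null against FoxA3 null minus that in Cre alfp against lox. It was called for 1 of the 8 enzymes, Hpd (1.12, SE 0.21, adjusted p = 0.00346 by limma), and for 6.82% of all tested genes. Hgd, at 0.69 (SE 0.16, adjusted p = 0.011 by limma), passed without the minimum difference, as did 14.4% of all tested genes. Hal, at -0.86 (SE 0.37, adjusted p = 0.132 by limma), did not pass, but was called without Cre alfp replicate 4 (-1.07, adjusted p = 0.0446 by limma). Got1 had a difference nearly as large as that of Hpd, at 1.10, with an SE of 0.70 (adjusted p = 0.311 by limma). The way Cre was brought in differs between the arms as well as Foxa3. Marker lists had called interactions too, lower for 4 of 10 hepatocyte-defining, 3 of 11 endothelium, 2 of 5 stellate, 1 of 4 erythroid and 4 of 11 periportal genes, and higher for both neutrophil and monocyte markers and 3 of 12 pericentral genes. The part of these in the enzyme values was not tested.

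**Figure D3:**
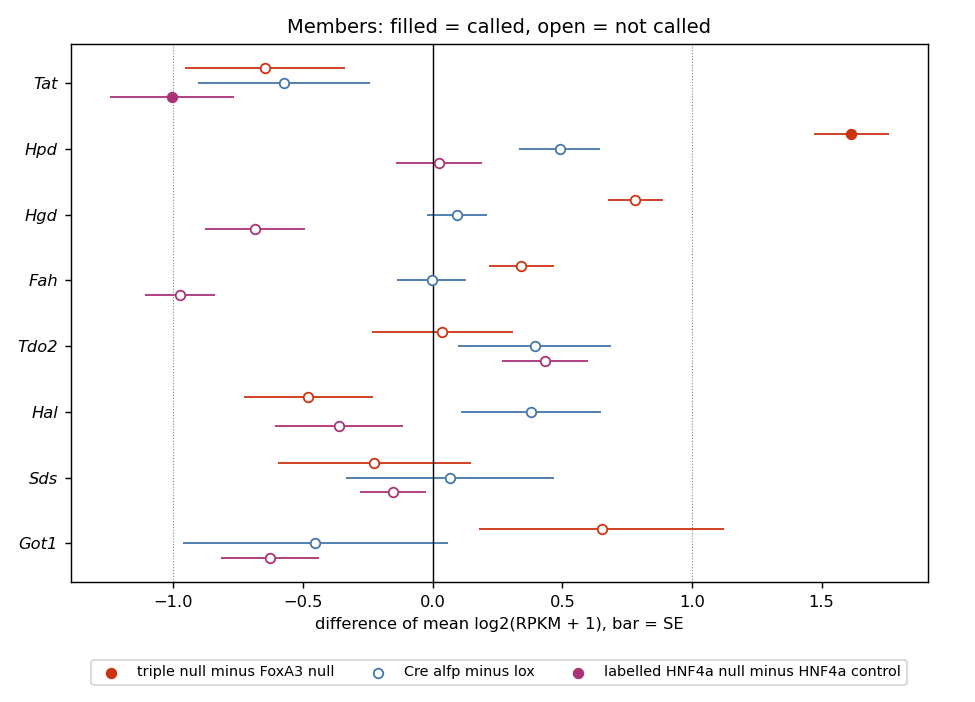
Difference of mean log2(RPKM + 1) for each enzyme in 3 comparisons, with bars of 1 SE; filled points were called and open points were not, and dotted lines mark -1 and 1. Hpd is called in triple null against FoxA3 null at 1.61, and Tat in the liver comparison at -1.01.

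Between the sets with and without Foxa3, Tdo2 passed the test in all 3 comparisons and was called in 2 of them. In these comparisons the median of all tested genes was itself above 0, by 0.132 for triple null against lox, 0.125 for triple null against Cre alfp and 0.103 for FoxA3 null against lox, and relative values have that median taken off. Tdo2 was at 363 ± 40.0 RPKM in lox (SD, n = 3), 479 ± 67.9 in Cre alfp (n = 4), 949 ± 413 with FoxA3 null (n = 4) and 948 ± 334 with the triple null (n = 4). FoxA3 null replicate 3, at 545 RPKM, was the only library of its set below the highest Cre alfp library, at 551. FoxA3 null exceeded lox by 1.29 on the log2 scale (SE 0.29, adjusted p = 0.00567 by limma; 1.19 relative), and Tdo2 alone of the 8 was called, against 7.19% of all tested genes. Without the minimum difference it was again alone among the 8, against 34.8%.

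The triple null against lox called 2 of the 8, Hpd at 1.32 (SE 0.16, adjusted p = 1.71e-05 by limma; 1.19 relative) and Tdo2 at 1.33 (SE 0.29, adjusted p = 0.00261 by limma; 1.2 relative), where 13.5% of all tested genes were called. Without the minimum, 5 of the 8 passed against 42.5%, adding Hgd at 0.52 (0.39 relative), Tat at -0.88 (-1.01 relative, adjusted p = 0.0457 by limma) and Hal at -0.79 (-0.93 relative, adjusted p = 0.0289 by limma). Tat was called without lox replicate 2 (-1.14) and without triple null replicate 4 (-1.08). Over 15 alternatives, however, the adjusted p by limma reached 0.152 for Tat and 0.0919 for Hal, so neither passed in all of them.

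The triple null against Cre alfp called 1 of the 8, Hal, which was lower by -1.17 (SE 0.25, adjusted p = 0.00209 by limma; -1.30 relative), with 10.3% of all tested genes called. Every triple null library, at 108 to 194 RPKM, was below every Cre alfp library, at 225 to 421. Without triple null replicate 2 the difference was -0.998, just short of the minimum. Without the minimum, 4 of the 8 passed against 41.2%, with Hpd at 0.83 (0.71 relative), Hgd at 0.43 (0.30 relative) and Tdo2 at 0.94 (0.81 relative) beside Hal. Tdo2 was called without Cre alfp replicate 3 (1.01) and likewise without replicate 1 or replicate 4 of the triple null (1.05 each). These comparisons share their triple null or lox libraries.

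Cell type markers differed in these comparisons as well. In triple null against Cre alfp, 7 of 11 tested sinusoidal endothelium markers were called lower, with 3 of 10 hepatocyte-defining and 2 of 5 stellate markers, and both tested neutrophil and monocyte markers were called higher. Of 4 tested erythroid markers 1 was called higher and 1 lower, and of 3 cholangiocyte and 10 Kupffer cell markers none. The periportal list, which holds Hal and Sds, had 4 of 11 called lower, Hal itself among them, with a median log2 difference of -0.33. The pericentral list had 5 of 12 called higher, with a median of 0.86. In triple null against lox, 6 of 11 endothelium, 4 of 10 hepatocyte-defining, 1 of 5 stellate and 1 of 3 cholangiocyte markers were called lower, both neutrophil and monocyte markers higher, and 3 of 4 erythroid markers higher and 1 lower. There 3 of 11 periportal genes were called lower and 5 of 12 pericentral genes higher. The summed endothelium markers were at 27.8 to 99.1 RPKM in Cre alfp and 48.7 to 81.3 in lox, the summed hepatocyte-defining markers at 71392 to 77263 and 71412 to 78543, and the summed neutrophil and monocyte markers at 1.59 to 4.07 and 1.14 to 1.68, with Ly6g at 0 in both groups. In FoxA3 null against lox, 1 of 11 endothelium, 1 of 3 cholangiocyte and 1 of 4 erythroid markers were called lower, and no marker of the other cell types or of either zone was called. Among the cell type lists in Cre alfp against lox, 1 of 3 cholangiocyte markers was called lower, and of 4 erythroid markers 1 was called higher and 1 lower. The part of these shifts in the enzyme values was not tested.

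Hpd also separated the groups in a second way. Every triple null and Cre alfp library, from 3094 RPKM up, was above every FoxA3 null and lox library, up to 3018. Hpd was 1 of the 285 genes (2.48% of those tested) with no overlap between these sets, and the only one of the 8 enzymes. The margin was set by Cre alfp replicate 4 and FoxA3 null replicate 3.

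In liver, Tat was the enzyme of the chain that was called. It was at 1028 and 634 RPKM in the HNF4a control libraries and at 417, 501, 385 and 323 in those labelled HNF4a null. The groups did not overlap, but the control libraries lay far apart. The log2 difference was -1.01 (SE 0.24, adjusted p = 0.0127 by limma), and it was -1.34 relative to the median of all tested genes, which was 0.337 here. Tat was the 1 enzyme of 8 called, against 14.5% of 12434 tested genes. It lost the call without the control library at 1028 RPKM (-0.66), without the labelled null library at 385 (-0.99) or without the one at 323 (-0.90). Quantile normalization ended the call too (-0.86).

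Fah was at 249 and 193 RPKM in the control and at 123, 107, 102 and 114 in those labelled HNF4a null. The labelled null libraries were close together and well below the control. The log2 difference of -0.98 (SE 0.13, adjusted p = 0.0015 by limma; -1.31 relative) was just short of the minimum. Fah was called without the control library at 193 RPKM (-1.16) and without the labelled null library at 123 (-1.02).

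Hgd was at 298 and 245 RPKM in the control and at 219, 145, 170.1 and 145 in those labelled HNF4a null, and Got1 at 82.0 and 81.7 against 68.5, 56.3, 42.1 and 47.2. Neither gene overlapped between the groups. Their log2 differences were -0.69 (SE 0.19, adjusted p = 0.023 by limma; -1.02 relative) and -0.63 (SE 0.19, adjusted p = 0.03 by limma; -0.96 relative). With no minimum difference, 4 of the 8 passed, Tat, Fah, Hgd and Got1, all lower, where 11.7% of all tested genes passed downward and 52.8% in either direction. Over 12 alternatives, which include fits with a lone control library, Fah passed in all, while Tat, Hgd and Got1 did not.

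Hpd did not follow them. It was at 1664 and 1376 RPKM in the control and at 1839.9, 1609, 1372 and 1384 in those labelled HNF4a null, a log2 difference of 0.02 (SE 0.17, adjusted p = 0.907 by limma) or -0.31 relative. The groups overlapped fully. The ratio of Hpd to Tat RPKM was 1.62 to 2.17 in the control (n = 2) and 3.21 to 4.42 in those labelled HNF4a null (n = 4), and the ratio of Hgd to Hpd averaged 0.178 ± 0.000953 and 0.11 ± 0.0152. Neither ratio overlapped between the liver groups. Both differed in the same direction as between the triple null and FoxA3 null, but different genes moved. In triple null against FoxA3 null, Hpd (1.61) and Hgd (0.78) were higher and Tat (-0.65) did not pass. In liver Hpd was little changed, while Tat (-1.01) and Hgd (-0.69) were lower, so Hgd went in opposite directions.

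Tdo2 was at 1161 and 1039 RPKM in the control and at 1793, 1249, 1534 and 1405 in those labelled HNF4a null. The labelled null libraries were all higher, and the log2 difference of 0.43 (SE 0.17, adjusted p = 0.0643 by limma) was 0.10 relative to the median. Hal was at 73.8 and 74.5 against 60.9, 39.5, 57.5 and 79.1, with overlap, and Sds at 126 and 122 against 115, 126, 111 and 94.8. The log2 differences of Hal and Sds were -0.36 (SE 0.25) and -0.15 (SE 0.13), and neither passed.

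The liver groups differed in other lists too. The summed hepatocyte-defining markers were at 41612 to 44107 RPKM in the control and 11988 to 13371 in those labelled HNF4a null. Of these markers 8 of 10 were called lower, Tat itself among them, and 1 higher. Summed cholangiocyte markers were at 18.2 to 19.2 against 139 to 238 (6 of 8 tested called higher), and summed neutrophil and monocyte markers at 1.99 to 2.57 against 5.32 to 18.3 (2 of 3 tested called higher, Ly6g at 0 in all 6 libraries). Summed Kupffer cell markers were at 173 to 184 against 216 to 266 (1 of 11 called higher) and summed endothelial markers at 187 to 209 against 240 to 258 (0 of 12 called). Of stellate markers 0 of 11, of lymphocyte markers 0 of 1 and of erythroid markers 1 of 5, lower, were called. The part of these shifts in the enzyme values was not tested.

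Over the 6 groups, the order of the mean levels of Hpd ran from the triple null through Cre alfp, lox, FoxA3 null and the libraries labelled HNF4a null to the HNF4a control. Neighbours in that order overlapped between lox and FoxA3 null and between the liver groups, and not elsewhere. For Tat all neighbours overlapped, from the HNF4a control at 831 ± 278 RPKM (n = 2) to the libraries labelled HNF4a null at 406 ± 74.2 (n = 4). The liver and hepatocyte libraries differ in tissue and depth, so levels across them are given side by side and were not tested. Hal, at 39.5 to 79.1 RPKM in the 6 liver libraries, was below every hepatocyte library, the lowest of which was at 108, and Sds, at 94.8 to 126, was below its lowest hepatocyte library, at 156.

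The other enzymes of amino acid breakdown, 67 listed with 65 tested, put the 8 in context. In triple null against FoxA3 null, 2 were called higher and 2 lower. Those higher were Prodh (1.64), proline dehydrogenase, and Bhmt (1.55), which remethylates homocysteine with betaine. Those lower were Ido2 (-3.59), a tryptophan dioxygenase relative of Ido1, and Csad (-3.21), a decarboxylase of taurine synthesis. In the tyrosine chain Gstz1, the isomerase between Hgd and Fah, had a log2 difference of 0.33 (SE 0.12, adjusted p = 0.0445 by limma), so Hpd, Hgd and Gstz1, with the cofactor enzyme Qdpr (0.54), passed upward without a minimum difference, while Got2 did not pass (0.03) and Pcbd1, a cofactor recycling enzyme, passed downward (-0.37). Without a minimum difference, 20 of the 65 other enzymes passed upward and 8 downward, against 29.7% of all tested genes in either direction.

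By amino acid, the lists without the 8 enzymes gave these counts in the same comparison. Of tyrosine genes 0 of 4 were called, of tryptophan genes 1 of 7 was called lower, and of histidine genes 0 of 3. Of serine, glycine and threonine genes 0 of 13 were called, of methionine and cysteine genes 1 of 10 higher and 1 lower, of branched chain genes 0 of 18, and of lysine, proline, alanine and glutamate genes 1 of 10 higher. In Cre alfp against lox, 1 of the 65 was called, Ido2, which was lower (-1.41).

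In liver, 3 of the 65 were called higher and 19 lower, against 14.5% of all tested genes called in either direction. Under median scaling the split was 0 higher and 20 lower, and under quantile normalization 1 higher and 20 lower. The lowest were Haao (-7.37, or -7.71 relative), Prodh2 (-5.72, or -6.06 relative), Kmo (-5.41, or -5.75 relative) and Aadat (-4.57, or -4.91 relative). Haao, Kmo and Aadat act in the kynurenine route that Tdo2 opens. The higher ones were Gldc (1.14, or 0.80 relative), Acmsd (1.03, or 0.69 relative) and Pcca (1.02, or 0.68 relative). In the tyrosine list Got2, the mitochondrial aspartate aminotransferase, was called lower (-1.16, or -1.5 relative), as Tat was.

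**Figure D4:**
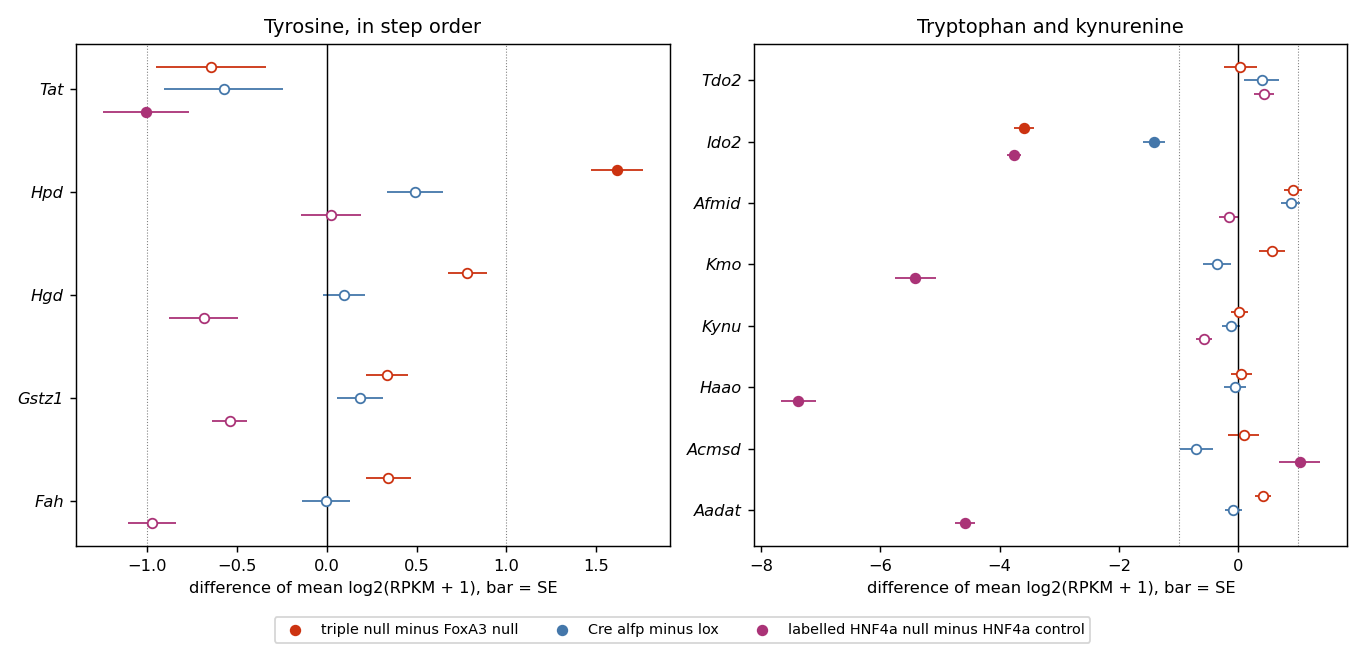
Difference of mean log2(RPKM + 1), with bars of 1 SE, for the genes of the tyrosine chain in step order and for the tryptophan and kynurenine genes, in 3 comparisons; filled points were called. The scales of the panels differ. Ido2 is called lower in all 3, at -3.59, -1.41 and -3.76, and Tdo2 in none.

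Genes that regulate these enzymes or share their settings were counted from lists as well. Nr3c1, the glucocorticoid receptor, averaged 12.7 ± 1.19 RPKM for the triple null (n = 4), 14.1 ± 4.73 for FoxA3 null (n = 4), 15.0 ± 2.22 in Cre alfp (n = 4) and 12.1 ± 1.58 in lox (n = 3). It averaged 19.4 ± 0.864 in the HNF4a control (n = 2) and 20.5 ± 1.3 in the group labelled null (n = 4), and was called in none of the 7 comparisons. Ppargc1a, a coactivator of the fasting response, averaged 0.924 ± 0.301, 1.29 ± 0.446, 0.855 ± 0.18 and 0.814 ± 0.0953 RPKM in the same hepatocyte groups, with 2.63 ± 0.219 and 4.76 ± 1.68 in liver, and was called in none either. In triple null against FoxA3 null, glucocorticoid targets had 3 of 10 called higher and 2 lower, fasting targets 1 of 8 higher and 2 lower, and the 13 regulators 1 higher and 2 lower, the targeted Foxa1 and Foxa2. Of all tested genes 8.11% were called there. The glucocorticoid targets called higher were Mt1, Mt2 and Lcn2, and those called lower Sgk1 and Angptl4. Fkbp5, Tsc22d3, Per1, Dusp1 and Zbtb16 of that list were not called. The periportal list, which holds Hal and Sds, had 4 of 11 called lower and 0 higher, and the pericentral list 4 of 12 higher and 0 lower. In Cre alfp against lox, where 2.38% of all tested genes were called, the glucocorticoid, periportal and pericentral lists had no call. The fasting list had 1 called lower, Asns (-3.13), and the regulators 2 lower. In liver the counts were 4 higher and 0 lower of 10 for glucocorticoid targets, 1 and 2 of 7 for fasting targets, 1 and 3 of 13 for regulators, 2 and 2 of 11 for the periportal list and 1 and 3 of 12 for the pericentral list. Of all tested genes 14.5% were called in liver.

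Among 11500 genes, those with the pattern most like each enzyme were ranked by Pearson's r of log2(RPKM + 1) over the 15 hepatocyte libraries, which share groups and depth. For Hpd these were Arhgef7 (0.97) and Apoc3 (0.96), and for Hgd Arhgef7 (0.95) and Hspbap1 (0.94). For Tdo2 they were Rfwd3 and Usp25 (both 0.99), for Hal Haus7 and Apoa2 (both 0.89), and for Fah Mgst3 (0.88) and Sdhb (0.87). For Tat they were Frmd4b (0.85) and Crlf2 (0.84), for Got1 Adh7 (0.82) and B4galt1 (0.79), and for Sds a symbol written as the date 1-Sep (0.72) and Sec24b (0.71). After group means were taken off, r over the 15 libraries ran from -0.53 for Hpd and Tdo2 to 0.71 for Hpd and Hal among the 28 pairs of the 8 enzymes. It was 0.60 for Hgd and Sds and 0.56 both for Hpd and Hgd and for Fah and Got1. FoxA3 null replicate 3 was the highest of its group for both Hpd and Hal, and Cre alfp replicate 4 the lowest of its group. The r of Hpd and Hal without these libraries was not computed.

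The authors' deposited tables set the 8 enzymes against development. The adult reference of these tables is not stated. In the authors' deposited table of hepatoblasts against adult hepatocytes, all 8 were lower, from -4.24 for Got1 to -6.47 for Hgd, with adjusted p-values of 1.43e-14 or less. The median of all genes there was 0.07. The share of all genes that was lower, higher or passing was not counted for these developmental tables, so the 8 are not set apart from other hepatocyte genes. In the authors' deposited table of newborn against adult hepatocytes, Tdo2 was lowest (-2.48), followed by Tat (-1.98), Hpd (-1.60), Sds (-1.5, adjusted p = 0.0541) and Hal (-1.49). Fah (-1.04), Hgd (-0.67) and Got1 (-0.43, adjusted p = 0.195) were nearest to the adult level there. In the authors' deposited table of the triple null against hepatoblasts, all 8 were higher, from 4.2 for Got1 to 7.31 for Tdo2, where the median of all genes was -0.196.

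The authors' deposited tables of the deletions cover the same genes. In the authors' deposited table of the triple null against FoxA3 null, Hpd was at 1.23 and Hgd at 0.48. Tat (-0.65, adjusted p = 0.0137), Hal (-0.85, adjusted p = 0.00122), Sds (-0.50, adjusted p = 0.0222) and Fah (0.28, adjusted p = 0.0449) passed in the authors' deposited table and not in the limma fit above. Got1 (0.61, adjusted p = 0.0703) and Tdo2 (0.04, adjusted p = 0.936) did not pass in the authors' deposited table either. In the authors' deposited table against the undeleted control, with the sign turned to triple null minus control, Hpd was at 1.46, Tdo2 at 1.05, Hgd at 0.57, Tat at -1.13 and Hal at -0.83, and Sds (-0.72, adjusted p = 0.246), Fah (0.03) and Got1 (-0.04) did not pass. The authors' deposited table of the triple null against Cre alfp has Hpd at 0.92, Tdo2 at 0.66, Hgd at 0.45 and Hal at -1.23. Sds passed in that authors' deposited table (-0.68, adjusted p = 0.0408) and not in the limma fit (-0.33, adjusted p = 0.501), while Tat (-0.61, adjusted p = 0.101), Got1 (0.26) and Fah (0.07) did not pass there. In the authors' deposited liver table, Tat was at -1.51, Fah at -1.29, Hgd at -1.06, Hal at -0.96 (adjusted p = 0.00233), Got1 at -0.93, Sds at -0.43 (adjusted p = 0.000614), Hpd at -0.31 (adjusted p = 0.0847) and Tdo2 at -0.01 (adjusted p = 0.954). Hal and Sds passed in that authors' deposited table and not in the limma fit of the liver libraries.

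**Figure D5:**
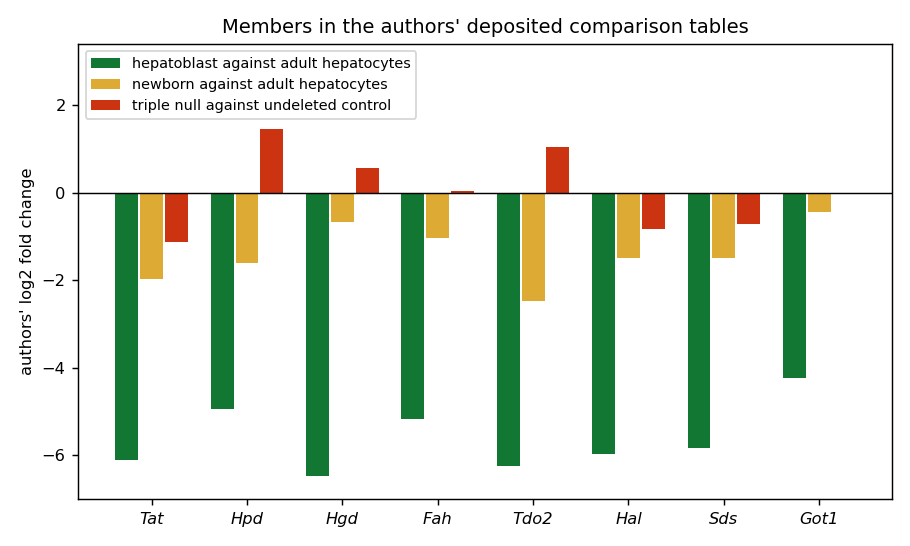
Log2 fold changes of the 8 enzymes in 3 of the authors' deposited tables, as bars from 0. All 8 are negative in hepatoblasts against adult hepatocytes, from -4.24 to -6.47, where the median of all genes is 0.07. In the triple null against the undeleted control Hpd is at 1.46 and Tat at -1.13.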

How the data were processed

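RNA was sequenced from hepatocytes (15 libraries) and liver (6 libraries), and per the submitters' processing notes mm9, SAMtools, Cufflinks 2.2.1 and DESeq2 were used, in an order that is not given. The authors deposited RPKM in 1 matrix, of which 21 columns matched a labelled library and 9 others were not used. Per the file headers, the authors' deposited tables hold log2 fold changes with p-values; their libraries are not stated, and the table against Cre alfp holds unadjusted p-values, which were adjusted here. Since no counts were used, limma 3.58.1 in R 4.3.3 was fitted to log2(RPKM + 1) with a trend, without covariates. The 15 hepatocyte libraries shared a fit, with genes at 1 RPKM or more in at least 3 libraries, and the 6 liver libraries another, with at least 2. This scale understates changes of low genes. P-values were adjusted by the Benjamini-Hochberg method over all tested genes. The absolute depth is unknown, and relative depth came from values under 0.3 RPKM. The script was tested on simulated data. The liver libraries carry no replicate number and are named by their values.

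Genes were named by rule: the 8 enzymes, FoxA, HNF4a and regulator genes, up to 4 called enzymes of other steps in each direction, and the 2 genes most like each enzyme. Gstz1, Got2, Qdpr and Pcbd1, and the named glucocorticoid and fasting targets, were added after their values were seen. The enzymes and the lists (7 amino acid lists, regulators, glucocorticoid and fasting targets, lobule zones and cell type markers) were chosen with earlier results of these data known. Alternatives were another pseudocount (0.1), no filter or one at 5 RPKM, median scaling, quantile normalization, a replicate block, a fit of the compared groups only, no minimum difference, and leaving out each library. Peaks and the chromatin data were not used here. Some genes of the lists are not reported here and were left out of the list counts.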

Additional observations from a re-analysis of the deposited data

Results flagged for a closer look

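Dixon's rule was applied to each of the 32 groups of 4 libraries (8 enzymes in 4 groups). It divides the gap between the farthest library and its nearest neighbour by the full range of the group. This picked out 3 values, where chance gives about 1 in 20 groups. Hpd was 3018 RPKM in FoxA3 null replicate 3, above the other libraries of its group. Hpd was 3094 RPKM and Hal 225 RPKM in Cre alfp replicate 4, each below the others of that group.

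The difference between the libraries with and without Cre was not the same in the arms with and without Foxa3, by the interaction test in limma, for 8 of 73 tested enzymes of amino acid breakdown, against 6.82% of all tested genes. The way Cre was brought in differs between these arms too. The interaction on the log2 scale was 1.12 for Hpd, 1.66 for Bhmt, 1.24 for Prodh and 1.06 for Mccc1, an enzyme of leucine breakdown. It was -2.42 for Csad, -2.18 for Ido2, -1.44 for Amdhd1, of histidine breakdown, and -1.2 for Agxt2, an aminotransferase. The adjusted p-values ran from 4.88e-05 for Ido2 to 0.0450 for Prodh.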

How the results depend on the processing

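Of 888 values under alternatives, 829 kept their direction and their side of the threshold, 31 changed sign, 23 gained the call or passed and 5 lost it. The count of called enzymes went from 1 to 2 without the minimum difference in triple null against FoxA3 null, as in the interaction. It went from 2 to 5 for triple null against lox, and from 1 to 4 against Cre alfp and in liver. Of all tested genes 29.7%, 14.4%, 42.5%, 41.2% and 52.8% passed there, in the same order. The count of enzymes was 2 under quantile normalization against Cre alfp, and in liver 2 under median scaling and 0 under quantile normalization. Leaving out 1 library gave counts of 0 to 2 against Cre alfp and 1 to 2 for the interaction. It added Tat to the called enzymes in triple null against lox without lox replicate 2 or triple null replicate 4. In liver, leaving out a labelled null library gave 0 to 2. A fit without a control library assumes that the lone one left varies like the other group.

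Signs turned only in enzymes that were not called. They turned under quantile normalization for Fah in Cre alfp against lox (0.050) and Hpd in FoxA3 null against lox (0.023), and under median scaling for Hpd in liver (-0.24). With 1 library left out, the values of those that turned ran, in Cre alfp against lox, from -0.25 to 0.58 for Sds, from -0.13 to 0.13 for Fah, from -0.0081 to 0.16 for Hgd and from -0.83 to 0.015 for Got1. In the interaction they ran from -0.33 to 0.19 for Tat and from -0.80 to 0.024 for Sds. For Tdo2 in triple null against FoxA3 null they ran from -0.20 to 0.30. In triple null against lox they ran from -0.11 to 0.53 for Got1 and from -0.53 to 0.25 for Sds, in FoxA3 null against lox from -0.25 to 0.010 for Fah and from -0.31 to 0.47 for Sds, and in liver from -0.11 to 0.16 for Hpd. The cause was not tested.

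Replicate numbers gave no sign of pairing: deviations of same-numbered libraries correlated at -0.36 to 0.17 (median -0.03). Those of differently numbered libraries correlated at -0.25 to 0.39 (median 0.02), an overlapping range. Whether same-numbered libraries share a day or litter was not tested. With the replicate block, Tat in triple null against lox was called (-1.03), which took the count there from 2 to 3, the counts in the other hepatocyte comparisons stayed the same, and signs turned for Tat in the interaction (0.083) and Sds in FoxA3 null against lox (0.045). The liver columns carry no number.

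Median scaling also called Tat in triple null against lox (-1.01) and Fah in liver (-1.24), and quantile normalization ended the call of Tat in liver (-0.86). Median scaling moved the share of higher genes among those called from 57.1% to 45.1% in triple null against lox, from 51.1% to 39.6% against Cre alfp, from 50.5% to 36.3% in FoxA3 null against lox and from 59.0% to 34.2% in liver. Over all genes, dropping the minimum difference gave 3413 called genes in triple null against FoxA3 null (933 with it), 628 in Cre alfp against lox (274), 1658 in the interaction (784), 4891 against lox (1556), 4743 against Cre alfp (1184), 4001 in FoxA3 null against lox (827) and 6569 in liver (1807). A pseudocount of 0.1 gave 1303 in FoxA3 null against lox, and Cre alfp against lox had 182 in a fit of its groups alone and 177 without lox replicate 1. The liver libraries were the shallowest, which limits their low genes most.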
